A study of Mus musculus with 42 samples.

Results

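Dexamethasone (Dex), a synthetic glucocorticoid, changed the transcript levels of 4290 of 11160 measured genes within 8 h in mouse macrophages labelled as MS4A4A knockout (KO). The comparison rests on 6 of the 42 libraries of the series, chosen by their titles: 3 libraries of KO cells after 8 h with 1 µM Dex and 3 of KO cells after 8 h with vehicle. These are bone marrow-derived macrophages, grown from marrow cells for 6 days with M-CSF, the growth factor that drives macrophage differentiation, then detached, seeded again and treated the next day. MS4A4A spans the membrane several times and is carried by macrophages, where glucocorticoids are known to induce it. The other groups used below are KO cells after 2 h and 24 h of Dex or vehicle and wild-type (WT) cells after 8 h of Dex or vehicle, each with 3 libraries. The labels give neither the allele nor which exons are missing, nor the animals' age or sex, and they do not say what the vehicle was. They also do not tell whether the 3 replicates were separate cultures or animals. Each p-value sets an effect against the spread of libraries within the 14 groups of all 42 libraries, and that spread may be technical.

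Glucocorticoids act through the glucocorticoid receptor, a transcription factor of the nuclear receptor class that waits in the cytoplasm on HSP90 chaperones. Once bound to hormone it moves to the nucleus, where it raises target genes by binding paired half-sites in DNA and lowers many inflammatory genes, often at enhancers shared with NF-kB and AP-1. In macrophages this is known to quieten cytokine production and to favour scavenging and the uptake of dying cells.

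The 6 libraries held 20154713 to 31020025 estimated counts, against 10140245 to 33528398 over the whole series, and their scaling factors lay between 0.980 and 1.04. The first principal component of their log2 levels, with 74.9% of the variance, separated Dex from vehicle. All 8 macrophage markers were measured, among them Csf1r, Adgre1 and Cd68, and together they stood at 24063 to 28164 CPM (counts scaled to a common library size) with vehicle and 25210 to 28354 CPM with Dex. Of markers of other cells, 9 of 14 fibroblast genes summed to 7.91 to 20.7 CPM with vehicle and 7.70 to 29.0 CPM with Dex, and none passed the test. Of 10 T cell markers Cd4 and Cd28 were measured, together at 369 to 402 CPM with vehicle and 118 to 137 CPM with Dex, and Cd28 fell. The 6 measured of 12 neutrophil markers summed to 130 to 191 CPM with vehicle and 384 to 423 CPM with Dex, of which Mmp8 alone rose. None of 8 natural killer cell markers was measured. The part of other cells in the results below was not tested. In bulk RNA, fewer cells of a type and less RNA per cell cannot be told apart.

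Ms4a4a RNA was lower in the KO than in WT but was still detected, and it rose with Dex. This protein-coding gene occupies bases 11375523 to 11392790 of chromosome 19 (GRCm38, plus strand). In KO cells it stood at 24.2, 27.5 and 35.02 CPM in the vehicle libraries and at 368, 424 and 379 CPM in the Dex libraries. WT cells held 67.03, 71.7 and 80.1 CPM with vehicle and 596, 649 and 647 CPM with Dex. Each KO library was below each WT library of the same treatment, and within the KO the Dex and vehicle libraries did not overlap. The rise in KO was 13.5-fold (log2 3.76 ± 0.24, SE; Benjamini-Hochberg adjusted p = 1.16e-14 in edgeR's quasi-likelihood test). Counts over the whole gene do not tell whether this transcript is intact.

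The response was broad, about even in direction, and mostly small. At an adjusted p under 0.05, 2294 genes rose, which is 20.6% of those tested, and 1996 fell, which is 17.9%, so that 38.4% of all genes were called. Counts of list members below are to be read against these shares. Of the genes that rose, 1276 did so by under 1.5-fold, and of those that fell, 1179. Over 2-fold, 510 genes rose (4.57%) and 353 fell (3.16%). The balance moved with the size of the change: 146 genes rose and 65 fell over 4-fold, and 68 rose and 9 fell over 8-fold. The median log2 fold change was 0.52 among genes that rose, -0.49 among those that fell and 0.02 over all genes. The 3 Dex libraries lay wholly above or below the 3 vehicle libraries for 2253 of the genes that rose and 1923 of those that fell, while 52.8% of all genes showed no overlap. Replicates varied little, with a median SD of 0.0923 among Dex and 0.113 among vehicle libraries on the log2 scale.

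**Figure D1:**
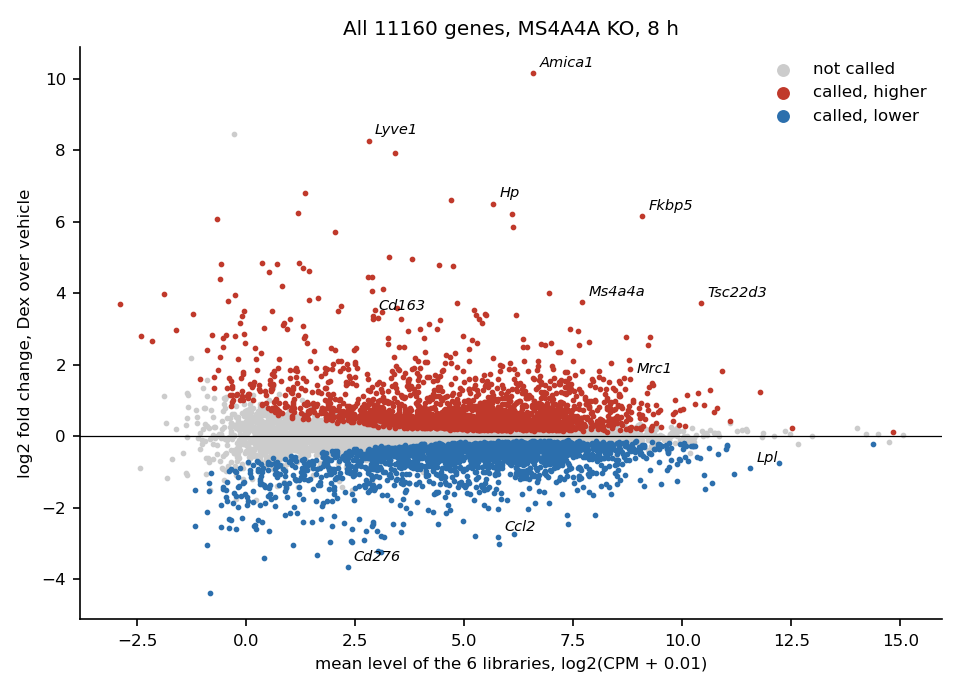
Each point is 1 of 11160 genes in the MS4A4A KO at 8 h, with the mean log2(CPM + 0.01) of the 6 libraries on the x axis and the log2 fold change of Dex over vehicle on the y axis. Red points are the 2294 genes called higher and blue points the 1996 called lower at an adjusted p of 0.05; the largest rises, such as Amica1 and Fkbp5, reach farther from 0 than the largest falls.

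The receptor's binding element is a pair of half-sites, and its core, ACANNNTGT, was searched on both strands from 250 bases before to 50 bases after each RefSeq gene start. It was present in 7.07% of 552 windows of genes that rose over 2-fold, in 3.46% of 347 windows of genes that fell over 2-fold and in 4.09% of all 11527 windows. No window was matched for 2153 of the 11160 genes, and some genes had several, so the shares are of windows. The AP-1 motif TGANTCA was found in 9.78%, 10.95% and 5.16% of the same windows, the NF-kB motif GGGANTTTC in 2.36%, 0.865% and 0.989%, and the cyclic AMP element TGACGTCA in 2.54%, 2.02% and 3.14%. The receptor core overlapped an AP-1 or NF-kB match in 2 windows. A match describes letters in a window and shows no binding, and much of the receptor's binding is known to lie far from gene starts. Shown next are the 4 named genes that rose most among those considered with a core match wholly in the 250 bases before the start. Windows on a single chromosome were not considered. The 250 bases of each gene follow, 5′ to 3′ on the gene's strand from RefSeq's GRCm38.p6 table, with the core in capitals. They belong to Map3k6, a stress-activated kinase gene that is a common receptor target (chr4:133240568-133240817, plus strand, core beginning 179 bases before the start), Mt1, a metallothionein (chr8:94178839-94179088, plus strand, 92 bases), Cd300lf, an inhibitory receptor of myeloid cells (chr11:115133993-115134242, minus strand, 112 bases), and Clec4e, the lectin Mincle (chr6:123289872-123290121, minus strand, 15 bases).
Map3k6: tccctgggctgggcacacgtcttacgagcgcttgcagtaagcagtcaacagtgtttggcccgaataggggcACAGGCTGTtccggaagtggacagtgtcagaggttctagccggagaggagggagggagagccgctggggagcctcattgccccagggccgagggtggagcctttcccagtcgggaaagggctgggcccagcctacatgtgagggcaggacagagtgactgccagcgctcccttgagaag
Mt1: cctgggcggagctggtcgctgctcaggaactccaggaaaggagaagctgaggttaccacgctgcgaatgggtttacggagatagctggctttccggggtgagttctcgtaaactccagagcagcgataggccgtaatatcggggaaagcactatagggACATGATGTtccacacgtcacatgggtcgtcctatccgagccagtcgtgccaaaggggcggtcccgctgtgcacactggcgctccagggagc
Cd300lf: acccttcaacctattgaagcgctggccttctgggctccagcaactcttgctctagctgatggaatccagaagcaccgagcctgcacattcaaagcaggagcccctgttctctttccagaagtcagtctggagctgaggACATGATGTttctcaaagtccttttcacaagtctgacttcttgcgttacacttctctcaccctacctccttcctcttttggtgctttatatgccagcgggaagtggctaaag
Clec4e: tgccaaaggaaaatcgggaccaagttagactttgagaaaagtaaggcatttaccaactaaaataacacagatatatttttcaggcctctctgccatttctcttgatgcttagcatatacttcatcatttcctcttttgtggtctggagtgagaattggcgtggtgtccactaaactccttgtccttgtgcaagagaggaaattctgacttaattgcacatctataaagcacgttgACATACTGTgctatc
Map3k6 stood at 4.55, 3.81 and 3.71 CPM with vehicle and 59.8, 51.9 and 47.4 CPM with Dex. Mt1 went from 67.3, 89.2 and 58.8 to 184, 213 and 188 CPM, Cd300lf from 144, 153 and 175 to 402, 378 and 397 CPM, and Clec4e from 40.04, 38.5 and 51.1 to 127, 91.7 and 93.5 CPM. In all 4 genes every Dex library was above every vehicle library, as in 2253 of the 2294 genes that rose. The log2 fold changes were 3.72 ± 0.19, 1.44 ± 0.22, 1.32 ± 0.14 and 1.27 ± 0.19 (SE).

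The largest rises were in genes that were nearly silent with vehicle. Amica1 (also known as Jaml), an adhesion molecule of leukocytes, had 12 counts over the 3 vehicle libraries and 17162 over the 3 Dex libraries, at 241, 153 and 181 CPM. This is a ratio of 1168, with a 95% exact binomial interval of 668 to 2260 that covers counting error only. Lyve1, a hyaluronan receptor of lymphatic vessels and of some tissue macrophages, had 3 vehicle and 1257 Dex counts, a ratio of 342 (117 to 1661). Angptl7, which encodes a secreted angiopoietin-like protein, had 6 and 1894 counts, a ratio of 258 (118 to 703). Hif3a, a hypoxia-inducible factor subunit, had 3 and 452 counts, a ratio of 123 (41.8 to 599), and the cytochrome P450 gene Cyp2ab1 had 11 and 719, a ratio of 53.4 (29.7 to 107.4). For these 5 genes the fitted fold change depends on the handling of near-zero counts, and the ratios are the plainer measure.

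Other large rises started from a higher, though often still low, level with vehicle. Fkbp5, a co-chaperone that dampens the receptor's hormone binding, rose from 16.3, 13.05 and 15.4 CPM in the vehicle libraries to 1156, 997 and 1045 CPM in the Dex libraries, 71.6-fold (log2 6.16 ± 0.36; edgeR quasi-likelihood with Benjamini-Hochberg adjustment, adjusted p = 5.51e-15). Ddit4, an inhibitor of the growth kinase mTORC1, rose from 2.25, 1.43 and 1.66 to 143, 127 and 132 CPM (74.8-fold). The vehicle and Dex libraries were far apart in both genes, and the replicates close together. Hp, which encodes haptoglobin, the plasma protein that binds free haemoglobin, rose from 0.841, 0.981 and 1.56 to 130.4, 77.9 and 91.95 CPM. The striatin-interacting gene Strip2 rose from 0.726, 0.189 and 0.683 to 59.5, 43.1 and 52.1 CPM, and the phenol sulfotransferase gene Sult1a1 from 2.904, 2.83 and 1.27 to 155, 126 and 129 CPM. Vipr2, a receptor for vasoactive intestinal peptide, rose by 5.01 ± 0.28 on the log2 scale, and Zbtb16, which encodes the zinc finger protein PLZF, by 4.96 ± 0.24. Zbtb16 stood at 0.879, 0.8297 and 0.878 CPM with vehicle and 24.8, 26.2 and 29.6 CPM with Dex, without overlap, like 2253 of the 2294 genes that rose.

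**Figure D2:**
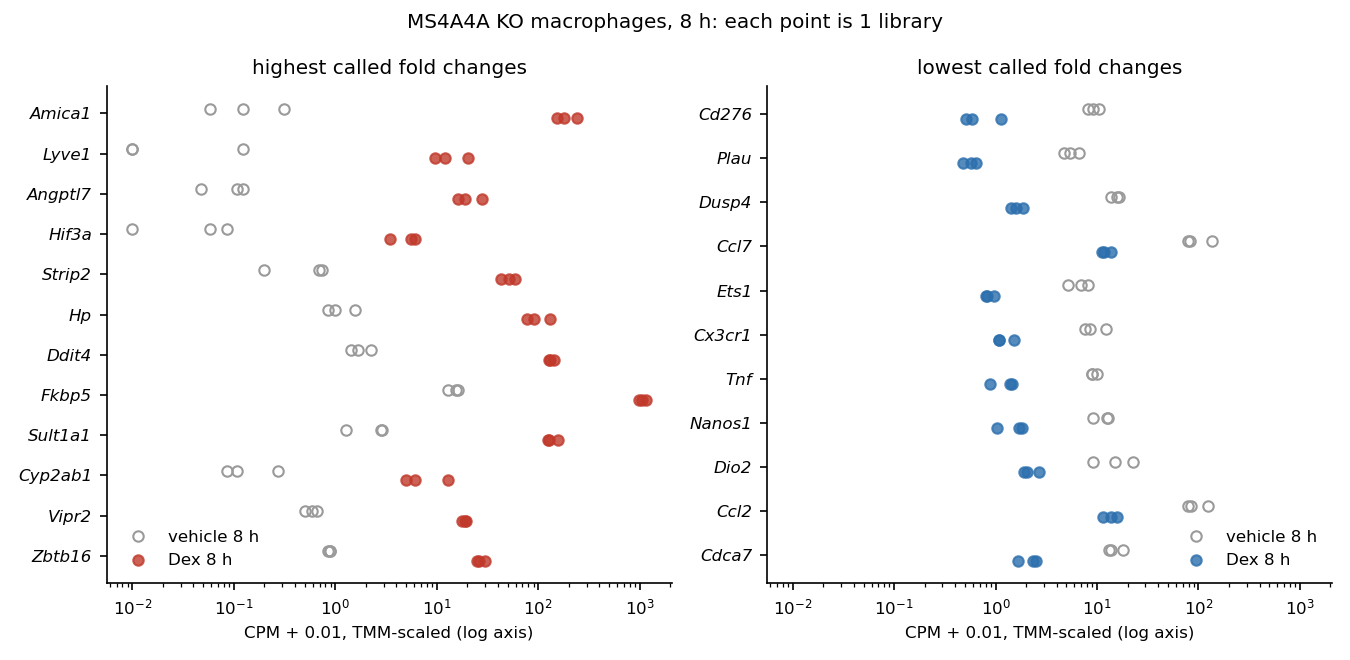
Level of each of the 12 genes with the largest rise and of 11 genes with large falls among those with at least 5 CPM in a group, in CPM + 0.01 on a log axis; open points are the 3 vehicle and filled points the 3 Dex libraries of the KO at 8 h. The rule required that Dex and vehicle points do not overlap; Amica1, Lyve1, Angptl7, Hif3a and Cyp2ab1 have vehicle points near 0.

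The receptor gene fell, and most of its best known targets rose. Nr3c1, the glucocorticoid receptor gene, went from 100.2, 95.3 and 98.6 to 75.1, 74.9 and 71.3 CPM (log2 -0.41 ± 0.08; edgeR quasi-likelihood with Benjamini-Hochberg adjustment, adjusted p = 0.000168). Of 17 genes of the receptor machinery 4 rose and 5 fell, against shares of 20.6% and 17.9% over all genes. The chaperones Hsp90aa1 (-0.88 ± 0.11) and Hsp90ab1 (-0.44 ± 0.07), on which the empty receptor rests, fell with the co-chaperones Ptges3 (-0.31) and Stip1 (-0.21), and the coactivators Ncoa1 (1.24 ± 0.13) and Ncoa2 (0.51 ± 0.13) rose with Fkbp5 and the HSP40 gene Dnajb1 (0.43 ± 0.07).

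Of 28 receptor targets, 18 rose and 5 fell, with a median log2 fold change of 1.40 against 0.02 over all genes. Tsc22d3, which encodes the anti-inflammatory leucine zipper protein GILZ, stood at 192, 198 and 191 CPM with vehicle and 2736, 2606 and 2340 CPM with Dex (log2 3.73 ± 0.21). Dusp1, a phosphatase that switches off p38 and JNK, went from 110.3, 102 and 109 to 778, 727 and 682 CPM (2.77 ± 0.22). In both genes every Dex library was above every vehicle library, as in 2253 of the 2294 genes that rose. The members that fell were Tgm2, a transglutaminase (-1.51 ± 0.15), Rgs2, a regulator of G protein signalling (-1.03 ± 0.13), the repressor Bcl6 (-0.86 ± 0.17), the NF-kB brake Tnfaip3 (-0.68 ± 0.14) and Anxa1, which encodes annexin A1, known as a mediator of glucocorticoid action (-0.502 ± 0.14). Anxa1 stood at 2268, 1936 and 2127 CPM with vehicle and 1450, 1461 and 1561 CPM with Dex.

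Transcription factors of the Kruppel-like and C/EBP families rose without exception among those called, 10 of 14 with 0 lower and a median of 0.43. Klf9, a direct receptor target, went from 7.18, 10.03 and 8.34 to 79.4, 77.3 and 73.99 CPM (log2 3.17 ± 0.19), and Klf2, which restrains myeloid activation, from 17.3, 16.5 and 14.98 to 56.8, 45.3 and 38.9 CPM (1.53 ± 0.18). Klf13 rose by 1.32 ± 0.11 and Klf3 by 0.67 ± 0.08. In the circadian clock list 11 of 20 genes rose and 4 fell, with a median of 0.37. Among the repressors of the loop, Per2 went from 1.03, 0.943 and 0.878 to 15.8, 15.3 and 19.03 CPM (4.12 ± 0.31), Per1 from 3.94, 4.56 and 3.902 to 39.1, 39.9 and 39.9 CPM (3.26 ± 0.19) and Cry1 from 7.72, 10.9 and 8.54 to 38.8, 44.04 and 43.6 CPM (2.22 ± 0.14), and these 3 rose with the output repressor Nfil3 (2.62 ± 0.16). Npas2 (-1.57 ± 0.19), a partner of BMAL1, the DEC repressors Bhlhe40 (-1.42 ± 0.26) and Bhlhe41 (-1.26 ± 0.17), and Nr1d2 (-0.54 ± 0.13) fell.

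The 12 largest falls among well measured genes included the attractants Ccl2 and Ccl7, Tnf, the phosphatase Dusp4 and the chemokine receptor Cx3cr1, which are described with their groups. Cd276, which encodes the checkpoint ligand B7-H3 and occupies bases 58524298 to 58555437 of chromosome 9 (minus strand), fell from 8.18, 9.203 and 10.4 to 0.4999, 0.574 and 1.13 CPM, 12.6-fold (log2 -3.66 ± 0.34; edgeR quasi-likelihood with Benjamini-Hochberg adjustment, adjusted p = 1.12e-10). Plau, the urokinase-type plasminogen activator, fell from 4.74, 6.56 and 5.41 to 0.467, 0.638 and 0.566 CPM. The vehicle and Dex libraries did not overlap in either gene, which the rule that chose them required. The transcription factor Ets1 (-2.97 ± 0.26), the RNA-binding protein gene Nanos1 (-2.92 ± 0.35), the thyroid hormone deiodinase Dio2 (-2.83 ± 0.35) and Cdca7, a gene of dividing cells (-2.79 ± 0.25), fell too.

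Of 18 inflammatory cytokines and chemokines measured, 10 fell and 2 rose, with a median log2 fold change of -1.25. Tnf, the gene of tumour necrosis factor, stood at 9.02, 8.94 and 10.0 CPM with vehicle and 0.867, 1.37 and 1.45 CPM with Dex (-2.92 ± 0.21). The monocyte attractants Ccl2 and Ccl7 went from 123, 84.8 and 78.9 to 11.4, 13.7 and 15.7 CPM (-2.82 ± 0.49) and from 135, 83.3 and 78.05 to 11.8, 11.1 and 13.8 CPM (-3.01 ± 0.57). In these 3 genes the groups did not overlap, which the rule for the largest falls required. Ccl4 (-2.72 ± 0.27), Ccl3 (-1.47 ± 0.20), Cxcl16 (-1.03 ± 0.11) and Il1b (-2.66 ± 0.60) fell too. Il1b was scarce, at 2.94, 1.51 and 3.02 CPM with vehicle and 0.233, 0.542 and 0.389 CPM with Dex. Oncostatin M (Osm, 0.93 ± 0.20) and Ccl9 (0.72 ± 0.24) rose, and Ccl9 lost its call without Dex replicate 1, vehicle replicate 2 or vehicle replicate 3 (adjusted p = 0.179, 0.0749 and 0.0683, edgeR quasi-likelihood). The labels name no microbial stimulus. With only genes averaging at least 5 CPM tested, fewer members enter and 6 fell.

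In the interleukin 1 system the ligand and sensors fell while receptors rose, 8 lower and 6 higher of 20. The inflammasome sensors Nlrc4 (-1.31 ± 0.18), Nlrp1b (-0.92 ± 0.18) and Nlrp3 (-0.56 ± 0.11) fell. Both the signalling receptor Il1r1 (1.82 ± 0.37) and the decoy receptor Il1r2 (1.29 ± 0.24) rose, with the adaptor Pycard (0.71 ± 0.15) and the pore former Gsdmd (0.41 ± 0.09). Without Dex replicate 3 the list had 5 falls. Of 22 NF-kB genes 5 rose, close to the share of 20.6% over all genes, and 7 fell, against 17.9%. The inhibitor Nfkbia went from 57.5, 50.95 and 51.2 to 163, 164 and 147 CPM (1.57 ± 0.18), and Birc3 (1.73 ± 0.12), Cd40 (1.89 ± 0.29), Bcl3 (0.52 ± 0.12) and Zfp36 (0.53 ± 0.09) rose with it. Tnip3, an A20-binding inhibitor, fell from 72.8, 36.1 and 48.6 to 11.9, 8.04 and 10.6 CPM (-2.37 ± 0.29). Without Dex replicate 2 the list had 4 falls.

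Of 25 genes of the immediate early and MAPK feedback class, 12 fell and 8 rose, with a median of -0.62. The ERK phosphatase Dusp4 fell from 13.9, 15.7 and 16.5 to 1.3998, 1.59 and 1.87 CPM (-3.24 ± 0.27), the stress factor Atf3 from 472, 444 and 471 to 146, 169.7 and 199 CPM (-1.43 ± 0.09) and Myc from 24.8, 20.3 and 19.1 to 8.07, 7.81 and 9.48 CPM (-1.34 ± 0.26). Of the phosphatases named, Dusp1 rose, while Dusp4, Dusp2 (-0.88) and Dusp6 (-0.81) fell. Fosl2, an AP-1 subunit, rose from 19.6, 26.7 and 21.4 to 66.1, 55.8 and 44.9 CPM (1.298 ± 0.15), and Ier2 by 0.69 ± 0.14. Of 18 mRNA decay factors 10 rose and 3 fell (median 0.33). Those that rose included Zfp36l1 (1.33 ± 0.17) and Zfp36l2 (0.74 ± 0.10), which destabilise AU-rich transcripts, and the deadenylation cofactors Btg1 (1.17 ± 0.14) and Btg2 (1.33 ± 0.17). Zc3h12d (-0.97 ± 0.11), an RNase of the Regnase family, and the AU-binding proteins Hnrnpd (-0.495 ± 0.10) and Elavl1 (-0.37 ± 0.07) fell.

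Of 22 Toll-like receptors and adaptors 9 rose and 3 fell. Tlr7, a sensor of single-stranded RNA, went from 132, 114 and 143 to 554, 501 and 547 CPM (log2 2.05 ± 0.12), Tlr8 from 172, 152 and 203 to 467, 394 and 442 CPM (1.31 ± 0.14) and the flagellin receptor Tlr5 from 2.18, 0.943 and 1.12 to 20.4, 12.5 and 14.7 CPM (3.47 ± 0.33). Every Dex library was above every vehicle library in these 3 genes, as in 2253 of the 2294 genes that rose. Cd180, a Toll-like homologue that restrains TLR4 in myeloid cells, fell from 151, 144 and 132 to 31.4, 31.9 and 41.2 CPM (-2.03 ± 0.16), and Tlr1 (-1.05 ± 0.19) and the adaptor Ticam1 (-0.29 ± 0.11) fell too, Ticam1 with its call lost in 3 of 6 fits that each left out 1 library.

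Of 39 interferon-stimulated genes, which respond to the interferons, 20 fell and 1 rose, with a median log2 fold change of -0.49. Ifit1 stood at 27.3, 11.8 and 67.3 CPM with vehicle and 6.499, 7.69 and 5.16 CPM with Dex (-2.44 ± 0.42), and Rsad2, which encodes the antiviral enzyme viperin, at 68.4, 43.1 and 155 and 25.1, 22.96 and 16.1 CPM (-2.05 ± 0.32). Rtp4 went from 97.9, 44.96 and 152 to 31.1, 32.1 and 22.7 CPM (-1.78 ± 0.27) and Dhx58 from 33.1, 19.6 and 42.1 to 15.7, 14.03 and 13.2 CPM (-1.14 ± 0.18). The Dex libraries were alike, whereas the vehicle libraries were not: replicate 3 was highest and replicate 2 lowest in each of these 4 genes. Averaged over the list as log2(CPM + 1), the vehicle libraries stood at 5.28, 4.65 and 5.79 and the Dex libraries at 4.80, 4.68 and 4.63, so vehicle replicate 2 lay within the range of Dex. The number of falls was 12 without vehicle replicate 3, 16 without vehicle replicate 1, 27 without vehicle replicate 2 and 16 without each Dex replicate in turn. Fitted on the 6 libraries alone, where only their own spread is used, 4 fell, both with and without the replicate number as a block, and Ifit1 and Rsad2 lost their calls (adjusted p = 0.0673 and 0.0517 without the block, edgeR quasi-likelihood; over all settings tried up to 0.185 and 0.176). Rtp4 lost its call there too (adjusted p = 0.0525, and up to 0.183), and Dhx58 with the block on the 6 libraries (0.0679). DESeq2 called 23 lower. What set the vehicle libraries apart was not tested. Gbp7 was the member that rose (0.92 ± 0.24), and it too lost its call in the fit on the 6 libraries (adjusted p = 0.145).

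Cytokine receptors changed in both directions, 7 higher and 7 lower of 24. The largest rises were in Lifr, the receptor chain for leukaemia inhibitory factor, from 7.87, 7.51 and 8.05 to 86.8, 78.6 and 81.4 CPM (3.398 ± 0.21), and Il15ra, which presents interleukin 15, from 3.36, 4.11 and 3.76 to 34.2, 33.4 and 31.6 CPM (3.14 ± 0.14). Il4ra (1.32 ± 0.11) and Ifngr1 (1.28 ± 0.09) rose too. Among 20 JAK-STAT and SOCS genes 7 rose and 4 fell. Socs2, a suppressor of growth hormone signalling, went from 0.6496, 0.717 and 1.17 to 13.5, 15.7 and 12.3 CPM (4.06 ± 0.33), and Stat3 (0.84 ± 0.11), Jak2 (0.79 ± 0.09) and Pias1 (0.79 ± 0.07) rose. Socs1, the main brake on interferon receptors, fell from 1.64, 1.17 and 1.61 to 0.633, 0.574 and 0.212 CPM (-1.61 ± 0.27), with Socs6 (-0.66 ± 0.14) and Socs5 (-0.35 ± 0.11). With only genes averaging at least 5 CPM tested, 4 of this list rose. Of 16 chemokine and chemoattractant receptors 8 fell and 4 rose (median -0.34). The fractalkine receptor Cx3cr1 fell from 8.52, 12.3 and 7.56 to 1.07, 1.499 and 1.06 CPM (-2.96 ± 0.49) and Ccr3 from 54.8, 28.9 and 39.8 to 9.93, 7.59 and 11.99 CPM (-2.07 ± 0.38). The 4 that rose (Ltb4r1, Fpr1, Cxcr4 and C5ar1) did so by 0.31 to 1.005 on the log2 scale, and each lost its call without at least 2 single libraries.

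Of 17 genes of the scavenging macrophage state linked to glucocorticoids, 11 rose and 0 fell, with a median of 1.17. F13a1, the transglutaminase factor XIII-A, went from 13.9, 12.8 and 11.8 to 178, 113 and 109 CPM (3.38 ± 0.27), and Cd163, the receptor for haptoglobin-haemoglobin complexes, from 1.76, 0.754 and 1.46 to 13.4, 13.4 and 13.97 CPM (3.36 ± 0.33). The mannose receptor Mrc1 went from 225, 209 and 236 to 679, 634 and 704 CPM (1.59 ± 0.14), and Mertk, a receptor for dying cells, from 119, 125 and 141 to 326, 345 and 362 CPM (1.42 ± 0.13). All 3 Dex libraries were above all 3 vehicle libraries in these 4 genes, as in 2253 of the 2294 genes that rose. Sepp1, which encodes selenoprotein P, rose by 1.25 ± 0.10.

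The efferocytosis list as a whole did not move one way, with 6 of 22 higher and 5 lower. The shares over all genes were 20.6% and 17.9%. Mertk rose, whereas its fellow receptor Axl fell from 116, 87.05 and 114 to 71.6, 56.9 and 58.3 CPM (-0.76 ± 0.17) and their bridging ligand Gas6 from 430.1, 462 and 481 to 244, 274 and 281 CPM (-0.78 ± 0.13). The integrin chains Itgav (-1.56 ± 0.18) and Itgb3 (-0.72 ± 0.15), which bind dying cells through bridging proteins, fell too, as did Tgm2. Ucp2, a mitochondrial carrier used in engulfment, rose by 1.299 ± 0.10. On the 6 libraries alone 10 members rose, and with the block 11 rose and 8 fell. Of 16 complement genes 7 rose and 1 fell: C1qa went from 21.02, 29.3 and 22.7 to 63.5, 73.5 and 63.02 CPM (1.45 ± 0.21), C1qb from 861, 804 and 727 to 1921, 1870 and 1721 CPM (1.204 ± 0.14) and C1qc from 551, 573 and 495 to 856, 875 and 848 CPM (0.67 ± 0.11). The anaphylatoxin receptor C3ar1 fell by a small step (-0.27 ± 0.08), a call lost without Dex replicate 2 or vehicle replicate 3 (adjusted p = 0.0556 and 0.0516, edgeR quasi-likelihood).

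Of the 48 lists, the Ms4a family had the highest median, 1.495, with 7 of 11 members higher and 0 lower. Beside Ms4a4a, Ms4a6b went from 183, 138 and 196 to 1059, 988 and 990.0 CPM (2.55 ± 0.17), Ms4a6c from 175, 134 and 178 to 753, 657 and 729.9 CPM (2.13 ± 0.15) and Ms4a6d from 318, 316 and 358 to 928, 925 and 944 CPM (1.495 ± 0.13). The Ms4a6 genes are close copies, and the counting could share reads between them. Immune receptors with inhibitory motifs were split. Of 18 Fc and inhibitory receptor genes 9 rose and 5 fell, with Siglece (2.404 ± 0.26) and Cd300lf higher and Sirpa, the receptor of the CD47 signal, lower, from 2442, 2210 and 2416 to 894, 912 and 1031 CPM (-1.32 ± 0.12). Pilra (-1.19 ± 0.25), the collagen receptor Lair1 (-0.91 ± 0.09), the phosphatase Ptpn6 (-0.56 ± 0.10) and Fcgr1 (-0.48 ± 0.15) fell as well, Fcgr1 with its call lost without Dex replicate 3 or vehicle replicate 1 (adjusted p = 0.0545 and 0.0752, edgeR quasi-likelihood). With the block on the 6 libraries 8 fell. Of 14 C-type lectins 6 rose and 3 fell, with Clec4a1 (1.87 ± 0.23) and Clec4e higher and Clec5a (-0.996 ± 0.11), Clec12a (-0.77 ± 0.12) and Clec4n (-0.35 ± 0.13) lower. Clec4n lost its call without Dex replicate 2, Dex replicate 3 or vehicle replicate 3 (adjusted p = 0.0967, 0.127 and 0.137, edgeR quasi-likelihood) and with the block on the 6 libraries.

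Among 20 matrix protease genes 7 rose and 8 fell. Mmp19 went from 19.4, 17.3 and 28.5 to 156, 116 and 150.3 CPM (2.704 ± 0.20) and Mmp8, the collagenase stored in neutrophil granules, from 110.2, 139 and 136 to 407, 376 and 327 CPM (1.53 ± 0.15), while Plau fell and its receptor Plaur rose from 40.9, 45.6 and 39.3 to 112, 66.6 and 55.8 CPM (0.899 ± 0.18; adjusted p = 0.0589 on the 6 libraries alone, edgeR quasi-likelihood, and up to 0.136 over all settings). The neutrophil markers S100a8 and S100a9 stood at 10.4 ± 4.36 and 8.63 ± 3.93 CPM (SD, n = 3) with vehicle and 13.6 ± 6.69 and 8.21 ± 5.42 CPM with Dex, and neither passed. Of 24 integrin and adhesion genes 5 rose and 5 fell, close to the shares of 20.6% and 17.9% over all genes. The hyaluronan receptor Cd44 fell from 514, 503 and 569.7 to 229, 220.1 and 233 CPM (-1.22 ± 0.07). With the replicate block 8 members rose in the fit on all libraries and 10 on the 6 libraries. Of 28 actin and phagosome regulators 14 fell and 4 rose (median -0.23). The bundling protein Lcp1 fell from 2030, 1888 and 1977 to 938, 876 and 984 CPM (-1.07 ± 0.09), Myo1e from 328, 274 and 326 to 101, 101 and 144 CPM (-1.43 ± 0.17) and Tpm1 from 113, 114 and 96.4 to 42.7, 50.6 and 48.3 CPM (-1.19 ± 0.14). Wasf2 (1.005 ± 0.10), Rhob (0.97 ± 0.13), Ezr (0.61 ± 0.13) and Was (0.28 ± 0.10) rose. Was lost its call without Dex replicate 1 or 2 or vehicle replicate 2 or 3 (adjusted p = 0.123, 0.0529, 0.0854 and 0.166, edgeR quasi-likelihood).

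Macrophage identity genes had no common direction, with 5 of 24 higher, 7 lower and a median of -0.06. Over all genes the shares were 20.6% higher and 17.9% lower. Maf (0.797 ± 0.17), Tfec (0.74 ± 0.09) and Cd14 (0.95 ± 0.20) rose, and Cx3cr1 and Fcgr1 fell. Without Dex replicate 3 the number of falls was 4, and with the block on the 6 libraries 11.

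Metabolic genes differed in direction by pathway. Of 23 sterol synthesis genes 13 fell and 1 rose, with a median of -0.69. Squalene epoxidase (Sqle) fell from 58.4, 83.9 and 91.4 to 20.1, 29.7 and 34.7 CPM (-1.47 ± 0.18), Idi1 from 50.8, 63.9 and 69.5 to 19.3, 24.8 and 24.7 CPM (-1.42 ± 0.16) and the sterol methyl oxidase Msmo1 from 177, 209.8 and 218 to 74.6, 96.6 and 105 CPM (-1.13 ± 0.10). Pmvk, a kinase of the same pathway, rose (0.96 ± 0.13). Lipid handling genes were split, 8 higher and 6 lower of 30, against shares of 20.6% and 17.9% over all genes. The triglyceride lipase Pnpla2 rose from 88.8, 91.6 and 96.2 to 341, 324 and 313 CPM (1.82 ± 0.09), whereas the lysosomal acid lipase Lipa fell from 2007, 2084 and 2332 to 707, 768 and 843 CPM (-1.47 ± 0.10), lipoprotein lipase (Lpl) from 4180, 3978 and 3549 to 1999, 1781 and 2513 CPM (-0.896 ± 0.17) and their regulator Pparg from 69.5, 63.5 and 59.8 to 21.5, 21.2 and 25.3 CPM (-1.502 ± 0.12). Angptl4, an inhibitor of lipoprotein lipase, fell too (-2.42 ± 0.26). With the block on the 6 libraries 11 members of this list fell.

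Among 27 genes of insulin and mTORC1 signalling 14 rose and 2 fell (median 0.35). Beside Ddit4, the mTOR inhibitor Deptor went from 19.6, 16.3 and 19.5 to 56.4, 59.6 and 56.3 CPM (1.64 ± 0.12) and Sesn2 from 43.4, 41.9 and 44.6 to 96.6, 88.95 and 73.9 CPM (0.999 ± 0.13). Not all are brakes, since Rptor, a subunit of mTORC1 itself, rose from 74.5, 52.2 and 61.02 to 199, 153 and 153 CPM (1.43 ± 0.14). The growth factor gene Igf1 fell from 716, 828 and 876 to 264, 304 and 349.6 CPM (-1.398 ± 0.12), as did Rheb, the activator of mTORC1 (-0.24 ± 0.07). In glycolysis and the hypoxia response 11 of 26 fell and 7 rose. The regulatory enzyme Pfkfb3 rose from 25.7, 33.6 and 34.1 to 204, 173 and 185 CPM (2.59 ± 0.14), and Pfkl (1.26 ± 0.09), Bnip3 (0.87 ± 0.08) and Slc2a3 (1.09 ± 0.14) rose, while Hk3 fell (-0.64 ± 0.07). Of 22 genes of the pentose phosphate and nucleotide pathways 9 fell and 2 rose, led by Ctps (-0.87 ± 0.22), Gart (-0.61 ± 0.10) and Ppat (-0.55 ± 0.11), and without Dex replicate 3 it was 5 falls. Of 18 prostaglandin and leukotriene genes 8 fell and 4 rose. Pla2g4a, the phospholipase that frees arachidonic acid, fell from 33.8, 27.4 and 31.4 to 14.4, 10.9 and 15.5 CPM (-1.18 ± 0.14) and Hpgds from 288, 235 and 263 to 136, 147 and 145 CPM (-0.88 ± 0.08). The prostaglandin E receptor Ptger2 rose (1.12 ± 0.14).

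Of 23 iron and haem genes 5 rose, close to the share of 20.6% over all genes, and 9 fell, against 17.9%. Hp, Cd163 and Hmox1, which degrades haem (0.67 ± 0.18), rose. The iron transporter Slc11a2 fell from 69.2, 70.1 and 72.05 to 30.1, 35.3 and 35.5 CPM (-1.07 ± 0.11) and the ferrireductase Steap3 from 37.7, 37.6 and 36.3 to 17.3, 16.8 and 21.96 CPM (-0.99 ± 0.12). Without Dex replicate 3 there were 3 rises, and Hmox1 was not called (adjusted p = 0.052, edgeR quasi-likelihood, the highest of its settings being 0.0669 on the 6 libraries alone). Of 32 lysosomal genes 6 rose, no more than the share of 20.6% over all genes, and 9 fell, against 17.9%. The lowest log2 fold change of the list was -1.47. Among the falls were the proton pump subunits Atp6v0a1 (-1.35 ± 0.15), Atp6v1a (-0.77 ± 0.08) and Atp6v1c1 (-0.61 ± 0.06). The number of rises was 3 with median-ratio scaling or on the 6 libraries, and 2 without Dex replicate 1 or vehicle replicate 3. Nuclear genes of oxidative phosphorylation (3 higher and 4 lower of 32), mitochondrial transcripts (0 of 13) and cytosolic ribosomal proteins (0 of 33) had smaller called shares than the 38.4% of all genes.

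Falls outnumbered rises in 3 lists tied to protein production. Of 29 ATF4 targets and aminoacyl-tRNA synthetases 17 fell and 4 rose (median -0.30). The mitochondrial folate enzyme Mthfd2 fell from 28.3, 32.9 and 30.8 to 8.699, 10.2 and 11.6 CPM (-1.595 ± 0.19) and the alanyl-tRNA synthetase Aars from 131, 146 and 152 to 87.3, 94.8 and 92.6 CPM (-0.64 ± 0.08), while Vldlr (1.67 ± 0.27) and Sesn2 rose. Of 30 ribosome biogenesis genes 12 fell and 2 rose, with Nop58 (-0.75 ± 0.14), Nolc1 (-0.55 ± 0.09), Bop1 (-0.48 ± 0.07) and Dkc1 (-0.57 ± 0.13) lower. Of 27 chaperones and unfolded protein response genes 11 fell and 3 rose (median -0.19). Hspd1 fell from 159, 152 and 158 to 103, 107 and 102 CPM (-0.59 ± 0.07), and Hsph1 (-0.54 ± 0.09) and Calr (-0.46 ± 0.09) fell with it. Herpud1, a component of endoplasmic reticulum degradation, rose from 13.5, 13.8 and 13.4 to 43.1, 43.2 and 39.2 CPM (1.62 ± 0.14), with Dnajb9 (0.42 ± 0.09) and Xbp1 (0.35 ± 0.08).

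Of the cell cycle lists only the G1 list, with 58.3% of members called at 8 h, was above the 38.4% of all genes. The DNA replication list had 25.0% called and the mitosis list 3.70%. Of 32 DNA replication genes 8 fell and 0 rose. Pcna, the replication clamp, fell from 292, 265 and 272 to 113, 121 and 131 CPM (-1.18 ± 0.14), with the helicase subunits Mcm2 (-0.94 ± 0.13) and Mcm6 (-0.68 ± 0.09) and the licensing factor Cdt1 (-0.73 ± 0.12). The block on the 6 libraries gave 13 falls. Of 27 mitosis genes 1 passed, Kif23 (-0.48 ± 0.16), and its call was lost without vehicle replicate 1, Dex replicate 2 or Dex replicate 3 (adjusted p = 0.0997, 0.0572 and 0.0571, edgeR quasi-likelihood). Mki67, the common proliferation marker, stood at 69.8, 74.98 and 70.3 CPM with vehicle and 87.3, 87.04 and 90.9 CPM with Dex. Every Dex library was above every vehicle library, while 52.8% of all genes showed no overlap. The gene did not pass in the main fit (log2 0.302 ± 0.16, adjusted p = 0.132 by edgeR quasi-likelihood with Benjamini-Hochberg adjustment). Mki67 gained a call in 2 of the alternatives tried, as did Ccnb1 and Tpx2 in 2 each. Among 24 G1 regulators 9 rose and 5 fell: cyclin D1 (Ccnd1) fell from 37.4, 34.7 and 30.3 to 14.3, 12.3 and 14.01 CPM (-1.34 ± 0.31), cyclin D3 (Ccnd3) rose from 50.5, 41.3 and 42.3 to 97.5, 83.2 and 85.4 CPM (0.99 ± 0.10), and the Myc antagonists Mxd4 (0.95 ± 0.10) and Mxi1 (0.67 ± 0.09) rose while Myc fell. Of 23 apoptosis genes 8 rose and 4 fell. Bcl2, the survival factor, fell from 10.6, 14.4 and 13.1 to 1.6997, 2.52 and 3.01 CPM (-2.400 ± 0.20), and Fas (1.33 ± 0.14) and Birc3 rose.

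**Figure D3:**
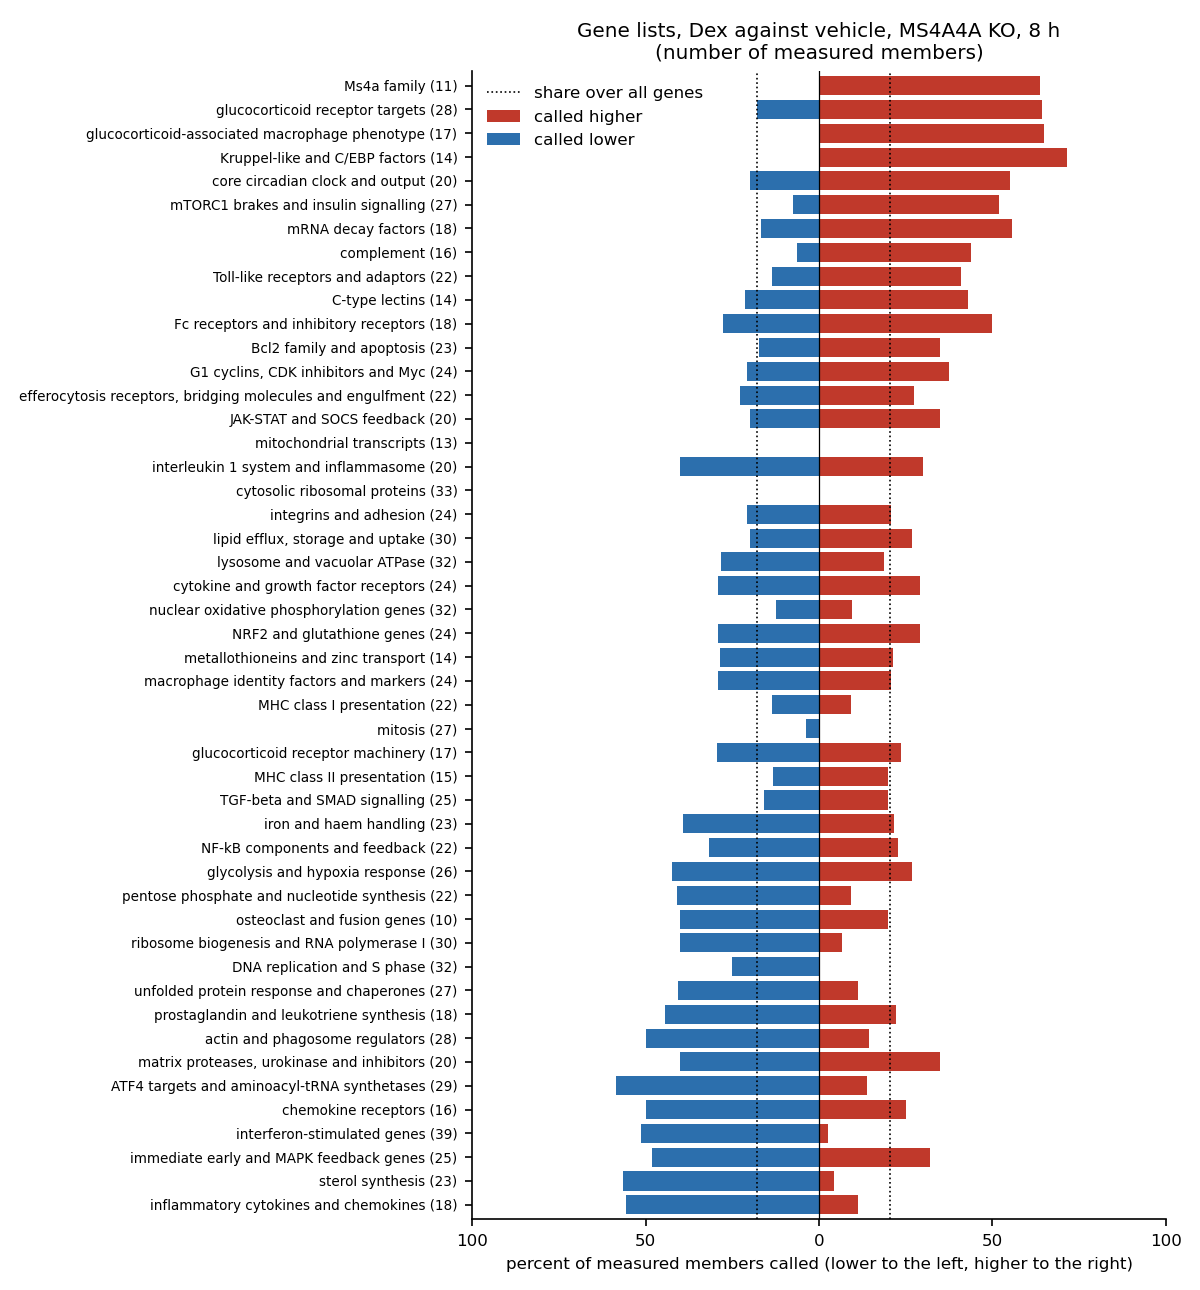
Percent of measured members called higher (red, to the right) and lower (blue, to the left) in Dex against vehicle, KO at 8 h, for the gene lists named at the left with their number of measured members; dotted lines mark the shares over all genes, 20.6% higher and 17.9% lower. Lists of receptor targets, the Ms4a family and Kruppel-like factors lie far to the right of the dotted line, and sterol synthesis, cytokines and interferon-stimulated genes far to the left.

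Set beside the same cells after 2 h, the 8 h response was larger and in part different. At 2 h 1162 genes were called (10.4%), 642 higher (5.75%) and 520 lower (4.66%). Of the genes higher at 8 h, 556 were already higher at 2 h, which is 24.2% of the 8 h and 86.6% of the 2 h genes. Of those lower at 8 h, 304 were lower at 2 h, 15.2% of the 8 h and 58.5% of the 2 h genes. The test of the difference itself, the Dex effect at 8 h minus that at 2 h, called 2070 genes (18.5%), 1145 upward (10.3%) and 925 downward (8.29%). Per2, for example, had a log2 fold change of 0.35 ± 0.27 at 2 h and 4.12 ± 0.31 at 8 h, while Per1 was already raised at 2 h (2.36 ± 0.17). Sterol synthesis had 2 of 23 genes lower at 2 h and 8 called in the difference. Direction turned in 38 genes. Among the 29 that were lower at 2 h and higher at 8 h were Fosl2 (-0.73 and 1.298), Btg1 (-0.41 and 1.17), Bcl3 (-1.17 and 0.52) and Mxi1 (-0.27 and 0.67). Among the 9 that turned the other way were the ERK phosphatase genes Dusp2 (0.52 and -0.88) and Dusp6 (0.87 and -0.81), chosen after their values were seen.

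After 24 h 4247 genes were called (38.1%), 2013 higher (18.0%) and 2234 lower (20.0%). Of those higher at 8 h, 1265 were higher at 24 h, 55.1% of the 8 h and 62.8% of the 24 h genes, and of those lower at 8 h 1138 were lower at 24 h, 57.0% and 50.9%. The Dex effect at 24 h minus that at 8 h was called in 1667 genes (14.9%), 550 upward (4.93%) and 1117 downward (10.0%). One library of this comparison stood apart in Fkbp5: in KO vehicle 24 h replicate 2 this gene was at 69.9 CPM against 14.2 and 16.9 CPM in the other 2. Without that library the difference was called in 1454 genes, within the range of 1252 to 1527 found when any single library of the comparison was left out. All 27 mitosis genes were lower at 24 h, with a median log2 fold change of -2.16 against -0.07 at 8 h, and all 27 were called in the difference. All 32 DNA replication genes were lower at 24 h, with a median of -1.48 against -0.18, and 28 were called in the difference. Chaperones went the other way, with 12 higher and 4 lower of 27 at 24 h and 13 called upward and 1 downward in the difference. Hspa5, the main chaperone of the endoplasmic reticulum, had a log2 fold change of -0.28 ± 0.08 at 8 h and 0.62 ± 0.08 at 24 h. The counts of these 3 lists in the difference were the same without the library that stood apart. For the 28 receptor targets the median was 1.40 at 8 h and 1.15 at 24 h, and 10 were called downward in the difference, which had a median of -0.35. Without the library that stood apart 9 were called downward, and the median difference was -0.25.

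**Figure D4:**
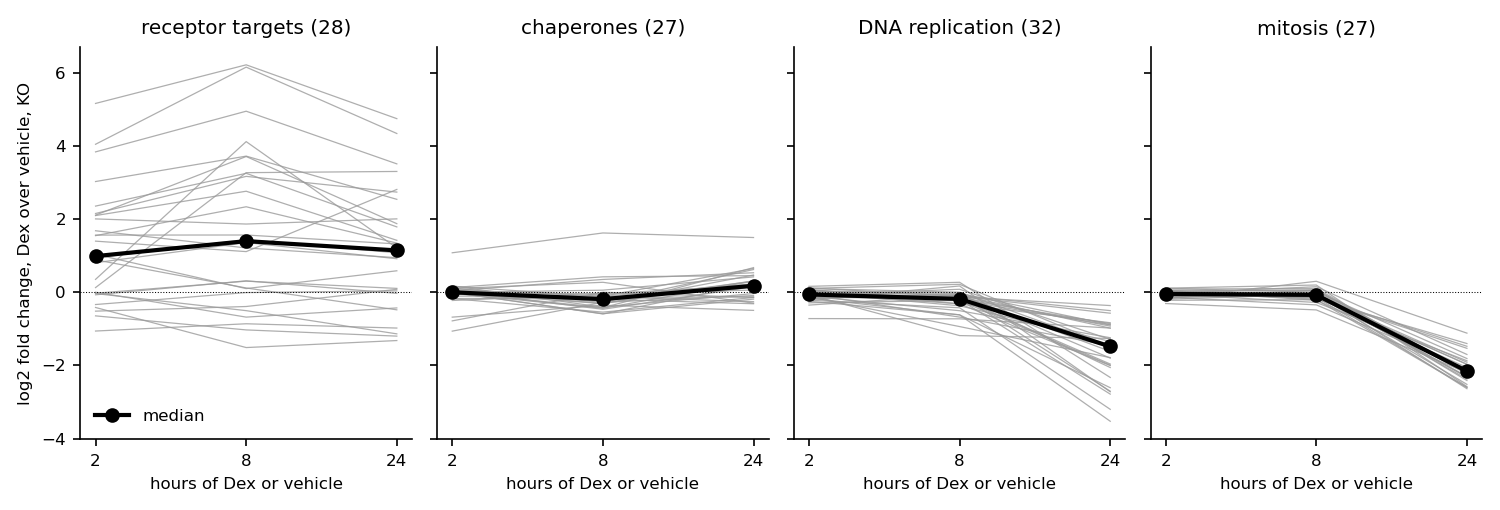
Log2 fold change of Dex over vehicle in the KO after 2, 8 and 24 h for the members of 4 gene lists; thin lines are genes and the thick line with points is the median of the list. The median of the receptor targets is above 0 at all 3 times, that of the chaperones is -0.19 at 8 h and 0.18 at 24 h, and the medians of replication and mitosis genes are far lower at 24 h than at 8 h.

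The Dex effect in the KO was then set against that in WT cells. At 8 h the test of the difference between the Dex effect in KO and that in WT called 0 of 11160 genes (0.0%) by edgeR quasi-likelihood and 0 by DESeq2, with 134 and 139 genes at an unadjusted p under 0.05 (1.2% by edgeR). That is fewer than exact p-values give where nothing differs, so this unpaired test was cautious. With the replicate number as a block on the compared libraries, 439 genes had an unadjusted p under 0.05 and 0 were called. The median SE of the difference was 0.166 on the log2 scale, and 90% of genes differed by -0.29 to 0.27. WT cells had 4125 genes called (37.0%), 2205 higher (19.8%) and 1920 lower (17.2%). Of the genes that rose in KO, 1912 also rose in WT, which is 83.3% of the KO and 86.7% of the WT genes, and of those that fell 1603 fell in WT, 80.3% and 83.5%. None went in opposite directions. Across all genes the 2 sets of fold changes had a Pearson r of 0.946, given as a description since genes are not independent. Ms4a4a rose by 3.76 ± 0.24 in KO and by 3.11 ± 0.23 in WT, and the difference of 0.64 ± 0.30 did not pass (edgeR quasi-likelihood with Benjamini-Hochberg adjustment, adjusted p = 0.9998). For Cd276 the effects were -3.66 ± 0.34 and -2.73 ± 0.33, with a difference of -0.93 ± 0.48 that did not pass either. A difference that misses the threshold does not show the genotypes to be alike.

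The list in which the genotypes lay farthest apart in counts was that of the interferon-stimulated genes, with 20 falls in KO and 7 in WT. The difference between KO and WT was below 0 for 39 of 39 members, with a median of -0.48, and 13 had an unadjusted p under 0.05, but 0 were called over all genes. As log2(CPM + 1) the WT vehicle libraries averaged 4.93, 4.96 and 5.09 and the WT Dex libraries 4.83, 4.79 and 4.98. KO vehicle replicates 1 and 3 were above every other 8 h library, while KO vehicle replicate 2 was below every WT library. Members of this list share libraries and move together, so their common sign does not count as 39 observations. The ATF4 list had 17 falls in KO and 9 in WT, with medians of -0.30 and -0.22 and 0 members called in the difference.

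**Figure D5:**
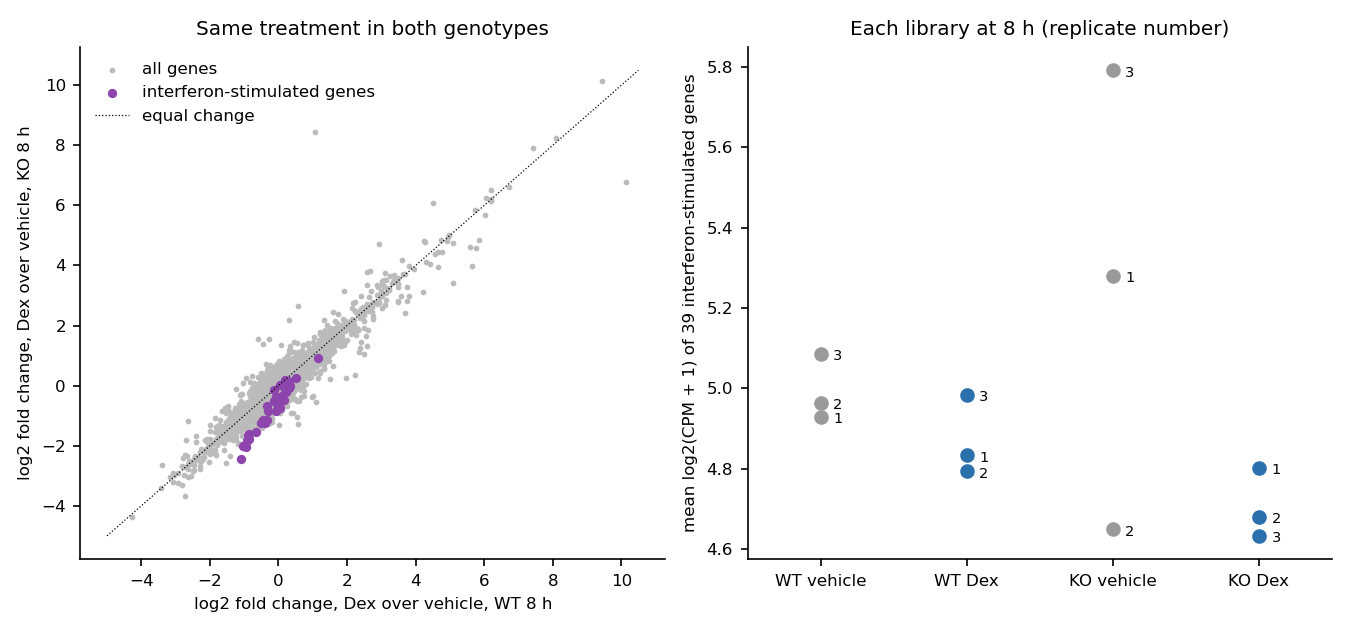
Left, log2 fold change of Dex over vehicle at 8 h in WT (x axis) and KO (y axis) for all genes, with the 39 interferon-stimulated genes in purple and a dotted line of equal change. Right, mean log2(CPM + 1) of these 39 genes in each 8 h library with its replicate number; KO vehicle replicates 1 and 3, at 5.28 and 5.79, lie above all other libraries.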

How the data were processed

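Bulk RNA of bone marrow-derived macrophages was turned into libraries with Takara's SMART-Seq mRNA LP kit, per the labels' protocols. The authors deposited expected counts per gene symbol, which need not be whole (69.5% of values lie within 0.01 of a whole number). The submitters' processing notes name GRCm38, fastp, HISAT2 and Salmon, with no role or order. Not given in the sources used here: annotation, strand setting, and how 11160 genes were retained. Counts were rounded and fitted with edgeR 4.0.16 (quasi-likelihood, robust, TMM scaling, 14 groups over 42 libraries) in R 4.3.3, with Benjamini-Hochberg adjustment over all genes and a threshold of 0.05. Fold changes are log2 with SE. CPM are TMM-scaled counts at a common library size. Without known strand, reads of overlapping antisense genes, and of close copies such as Mt1 and Mt2, cannot be told apart. Intervals on ratios cover counting error only.

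Named genes were a fixed set of 14, the 12 highest and 12 lowest called genes with at least 5 CPM in a group and no overlap, up to 4 members of each list with the lowest p plus members against the list's majority, and the 4 highest and lowest of each difference. Csf1r, Adgre1, Cd68, Cd4, Cd28, Kit, S100a8 and S100a9 are named as cell type markers. A few genes that the rule selects are not reported here. Ptges3, Stip1, Dusp2, Dusp6, Hspa5, Hsp90b1, Dnajb11, Pdia6, Creld2 and Manf were named after their values were seen. The members and lists were chosen with earlier results of these data known.

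Alternatives were median-ratio scaling, DESeq2 1.42.0, no filter or a mean of at least 5 CPM, the compared libraries alone, the replicate number as a block, and leaving out each library. The main filter removed 0 genes, so the fit with no filter repeats the main fit. Same-numbered libraries deviated together at 8 h in KO (r = 0.274, 0.392 and 0.111 for numbers 1 to 3), at 2 h in KO (0.484, 0.122 and 0.177) and at 8 h in WT (0.435, 0.353 and 0.294), so the numbers were taken to pair them, but not at 24 h (0.235, -0.0348 and 0.0626). Between different numbers the highest r was 0.0756 at 8 h and 0.288 at 2 h in KO, and all were negative at 8 h in WT. Deviations from a mean of 3 libraries lean negative between different numbers, so this check is weak. The main fit had no replicate block, so its p-values and SE leave the pairing out. In simulated data for the 8 h KO comparison, with 11160 genes of which 200 were changed, 85% of genes lowered and 92.5% of genes raised by 1 on the log2 scale were recovered, 52.5% and 65% at 0.5, and 13 unchanged genes were called, 7.65% of the calls. The simulated libraries were independent, without pairing, and far fewer genes changed than the 38.4% called in the data. These rates need not hold there.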

Additional observations from a re-analysis of the deposited data

Results flagged for a closer look

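Each result here was picked out because the Dex effect in the KO differed between 2 times by a test of the difference itself (edgeR quasi-likelihood, Benjamini-Hochberg). Between 2 h and 8 h the effect differed in 2070 genes. Among called genes with at least 5 CPM in a group the increase was largest for Angptl7 (6.60 on the log2 scale), Amica1 (4.63), Hp (4.37) and Cyp2ab1 (4.21), all of them nearly silent with vehicle, and large decreases were those of Cd276 (-3.36), the orphan receptor gene Gpr176 (-2.41) and Ifit1 (-2.37). Hp, for instance, rose by 2.13 ± 0.42 at 2 h and 6.501 ± 0.38 at 8 h, and Cd276 had a log2 fold change of -0.302 ± 0.29 at 2 h and -3.66 ± 0.34 at 8 h. Cyp2ab1 lost this call without KO vehicle 2 h replicate 2 or 3 (adjusted p = 0.0518 and 0.141), and Ifit1 lost it in the fit on the compared libraries alone (adjusted p = 0.0574), and its 8 h vehicle libraries were far apart, as given above.

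Between 8 h and 24 h the effect differed in 1667 genes. Upward differences were led by the monocyte antigen Ly6c2 (2.89), the chitinase-like Chil3 (2.42), the acute-phase gene Saa3 (2.27) and the lipid phosphatase gene Ppap2b (2.22). Saa3 lost the call on this difference on the compared libraries alone, without and with the block (adjusted p = 0.0776 and 0.08155, edgeR quasi-likelihood). Ly6c2 and Chil3 were called at 8 h too, at 0.52 ± 0.18 and 1.17 ± 0.40, but each lost that call without 3 of the 6 libraries in turn. For Ly6c2 these were vehicle replicates 1 and 3 and Dex replicate 1, and for Chil3 vehicle replicates 1 and 2 and Dex replicate 3. Downward differences were led by Lyve1 (-4.13), Angptl7 (-4.07), the Wnt receptor Fzd4 (-3.53) and the cohesin acetyltransferase Esco2 (-3.46). Fzd4 stood at 0.611, 0.867 and 0.439 CPM with vehicle and 16.3, 14.5 and 11.9 CPM with Dex at 8 h, a log2 fold change of 4.44 ± 0.25, and at 24 h its effect was 0.92 ± 0.29. Lyve1 lost the call on this difference when replicate 2 of KO vehicle at 24 h, or replicate 2 or 3 of KO vehicle at 8 h, was left out (adjusted p = 0.194, 0.0743 and 0.0529), and Angptl7 without KO vehicle 24 h replicate 1 (0.0678).

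All 27 mitosis genes and 28 of 32 DNA replication genes were called lower in the 24 h effect than in the 8 h effect. In 6 chaperone genes the effect was below 0 and called at 8 h and above 0 and called at 24 h, with differences of 1.10 for Manf, 0.90 for Hspa5, 0.78 for Pdia6, 0.74 for Creld2, 0.62 for Hsp90b1 and 0.54 for Dnajb11. These 6 were chosen after their values were seen. Of the libraries behind these differences, KO vehicle 24 h replicate 2 stood apart from its group in Fkbp5, as given above.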

How the results depend on the processing

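No named gene changed its sign under the alternatives tried in a comparison where it was called, but the balance of higher and lower genes and some list medians near 0 did. Of 4471 values of single named genes under an alternative, 4276 kept their direction and side of the threshold. The call was lost in 174 and gained in 21. The 4276 include the values with no filter, which had to be the same because the main filter removed 0 genes. Of 301 named genes 289 were called at 8 h, and 242 under every alternative that tested them. With a mean of at least 5 CPM only 9425 genes were tested. The 8 h KO count of 4290 was 4298 with median-ratio scaling, 4418 with DESeq2, 3851 with a mean of at least 5 CPM, 4583 on the compared libraries alone and 3635 to 3883 with 1 library left out. Median-ratio scaling gave 2138 higher and 2160 lower, DESeq2 2193 and 2225 and the compared libraries alone 2250 and 2333, against 2294 and 1996. At 8 h minus 2 h 1145 higher and 925 lower became 1020 and 1051 with median-ratio scaling, 1135 and 1167 with DESeq2, 954 and 1010 on the compared libraries and 1423 and 1523 with the block on these, and lower genes also outnumbered higher ones without KO Dex 2 h replicate 1 or 2 or KO vehicle 2 h replicate 2. With a mean of at least 5 CPM the median log2 of 3 lists changed sign, from 0.19 to -0.03 for Fc and inhibitory receptors, from -0.27 to 0.01 for matrix proteases and from -0.16 to 0.03 for osteoclast genes, and the medians of some other lists within 0.14 of 0 changed sign under 1 or more alternatives. Blocking on the replicate number, which pairs the 8 h libraries, gave 4885 (2591 higher, 2294 lower), and 5511 (2658 and 2853) on the compared libraries alone. Genes lower at 2 h, 520, were 336 on the compared libraries alone and 339 to 707 with 1 library left out, the lowest without KO Dex 2 h replicate 1. Genes lower in the effect at 8 h minus 2 h, 925, were thus 1523 with the block on the compared libraries, and genes higher at 24 h minus 8 h, 550, were 846 with the block on all and 968 on the compared libraries, where the 24 h numbers do not pair. The KO minus WT difference called 0 genes under each alternative. Depth limits genes with a few counts with vehicle, whose fold changes have wide counting intervals. The cause of these shifts was not tested.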

Other observations

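In the same comparison, Dex against vehicle in the KO at 8 h, some genes of groups that belong to no account above were called (edgeR quasi-likelihood, Benjamini-Hochberg). Of 25 TGF-beta and SMAD genes 5 rose and 4 fell, close to the shares of 20.6% and 17.9% over all genes. The ligand gene Tgfb3 (log2 1.91) and the co-receptor Tgfbr3 (1.47) rose, while Tgfb1 (-0.50) and the receptor Acvrl1 (-0.46) fell. Of 14 metallothionein and zinc transport genes 3 rose and 4 fell, with Mt2 (2.34) and Mt1 (1.44) higher and the zinc importers Slc39a6 (-1.15) and Slc39a10 (-1.08) lower. Of 24 NRF2 and glutathione genes 7 rose and 7 fell, with Gpx3 (1.38) and Prdx6 (0.91) higher and Prdx1 (-1.05) and Nfe2l2 itself (-0.52) lower.

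Of 15 genes of MHC class II presentation 3 rose and 2 fell, a share no higher than over all genes. Ciita, the master regulator of the class, fell by 2.34 on the log2 scale, while Cd40 (1.89) rose. Of 10 osteoclast and fusion genes 2 rose and 4 fell, with the fusion protein gene Dcstamp (-2.24) and Ckb (-1.39) lower and Acp5, tartrate-resistant acid phosphatase (1.08), higher. Among markers of other cells, the mast cell receptor Kit stood at 4.47 to 8.11 CPM with vehicle and 1.03 to 2.998 CPM with Dex and was called lower.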
